A study of Mus musculus with 12 samples.

Results

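Laminins are the cross-shaped proteins of the basement membrane, each built from an alpha, a beta and a gamma chain. Hemidesmosomes are the plaques by which epithelial cells hold on to them: integrin alpha6 beta4, encoded by Itga6 and Itgb4, binds laminin outside the cell, and plectin and the epithelial form of dystonin link it to keratin filaments inside. The chains encoded by Lama3 and Lamb3 enter laminin-332, the laminin that anchors hemidesmosomes, whereas those of Lama5 and Lamb1 enter other laminins, found in most basement membranes. In the mammary gland these proteins lie between the epithelium and the stroma.

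The genes described are 7 members, Lama3, Lamb3, Lama5, Lamb1, Itgb4, Itga6 and Dst, of the 19369 genes in the gene tables of the Total libraries. They were named by symbol and chosen by their levels in tumour cells of the 6 tumours and in the other annotated classes, so those levels are a description and carry no test. The mouse mammary carcinoma line 4T1 and 5 clones of it, each grown from 1 cell and named E, EM1, EM2, EM3 and M, had been cultured and then implanted in the mammary fat pad of female BALB/c mice aged 9 to 11 weeks. The clones are described as covering epithelial, intermediate and mesenchymal states. Each of the 6 groups was 1 tumour, which gave a Total library of dissociated cells and a CD45 library of cells enriched by beads against CD45, the leukocyte surface antigen. No group had a second tumour, so intervals cover counting error only and nothing can be said of the spread between tumours of a clone.

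Annotated tumour cells numbered 5907 in the parental tumour, 4685 in M, 3320 in EM2, 2855 in EM1, 1964 in EM3 and 775 in Clone E after called doublets had been left out, with a median of 6509 to 15276 UMIs per cell. A UMI, or unique molecular identifier, marks 1 captured RNA molecule. The levels given are CPM, the UMIs of a gene per 1000000 UMIs once all cells of a class within 1 library had been added up. The summed level of 5 epithelial markers (Epcam, Krt8, Krt18, Krt19 and Cdh1) was 1863 to 6952 CPM in tumour cells. In the other main classes it ranged from 52.5 to 214.3 CPM in macrophages to 276.1 to 1012 CPM in granulocytes, with 277.5 to 960.2 CPM in T and NK cells, 138.7 to 930.4 in fibroblasts and 73.3 to 566.2 in endothelial cells. Tumour cells of Clone E also held the most leukocyte marker RNA, 231.4 CPM summed over Ptprc, Cd52, Coro1a and Laptm5, against 31.5 to 75.4 CPM in the other 5 tumours. The Total libraries of Clone E and EM3 shared 1434 bead barcodes, and those of EM1 and EM2 shared 906, whereas the other 13 pairs shared 85 to 211. Full barcodes were shared by at most 189 cells of any pair.

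The laminin-332 chains Lama3 and Lamb3 were high in the tumour cells of Clone E and low in all others. Lama3, the alpha chain, had 572.0 CPM (95% Poisson interval 551.7 to 592.9) in Clone E but 18.4 (17.5 to 19.3) in the parental tumour, 15.8 in EM1, 9.31 in EM2, 1.61 (1.19 to 2.15) in EM3 and 0.536 (0.373 to 0.745) in M. Clone E thus stood apart from the other 5 tumours, and no 2 neighbours in this order had overlapping counting intervals. The level in Clone E was 31.1-fold that of the parental tumour (29.2 to 33.0), 36.3-fold that of EM1 and 1067-fold that of M (765.6 to 1535), the last resting on 35 UMIs in M.

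Lamb3, the beta chain, followed a similar course with a smaller range. Its level was 150.7 CPM (140.4 to 161.7) in Clone E and then 42.1 (40.7 to 43.5) in the parental tumour, 19.1 in EM2, 17.3 in EM1, 2.51 in EM3 and 0.766 (0.568 to 1.01) in M. EM1 and EM2 had overlapping intervals, and the other neighbours did not. Clone E exceeded the parental tumour 3.58-fold (3.31 to 3.87) and M 196.9-fold (147.8 to 267.6).

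The laminin chains of broader use were ordered differently and varied far less than Lama3 and Lamb3. Lamb1 had 749.1 CPM in M, 726.8 in EM1, 600.0 in EM3, 581.2 in the parental tumour, 484.1 in Clone E and 421.0 in EM2. Lama5 had 450.6 CPM in EM1, 381.8 in EM3, 368.7 in M, 315.4 in the parental tumour, 289.6 in Clone E and 259.9 in EM2. For both genes Clone E was the second lowest and EM2 the lowest, and no neighbours overlapped in counting error.

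The hemidesmosome genes were present in tumour cells of all 6 tumours. Itgb4, the beta4 integrin of this structure, had 733.5 CPM in Clone E, 501.5 in EM2, 477.2 in EM1, 432.9 in the parental tumour, 405.1 in EM3 and 319.3 in M. As for Lama3, Clone E was highest and EM3 and M were lowest, but the whole span was 2.30-fold (2.22 to 2.38). Itga6, the alpha6 integrin that pairs with either beta4 or beta1, lay between 250.5 CPM in EM1 and 352.1 in EM2, with 293.4 in Clone E. Dst, the cytoskeletal linker dystonin, lay between 359.8 CPM in EM2 and 560.4 in EM1, with 434.0 in Clone E. For Itga6 the intervals of EM3 overlapped those of the parental tumour and of Clone E, and for Dst that of Clone E overlapped those of EM3 and the parental tumour. Dst is 1 gene with epithelial, neuronal and muscle forms, and the deposited counts do not separate them.

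**Figure D1:**
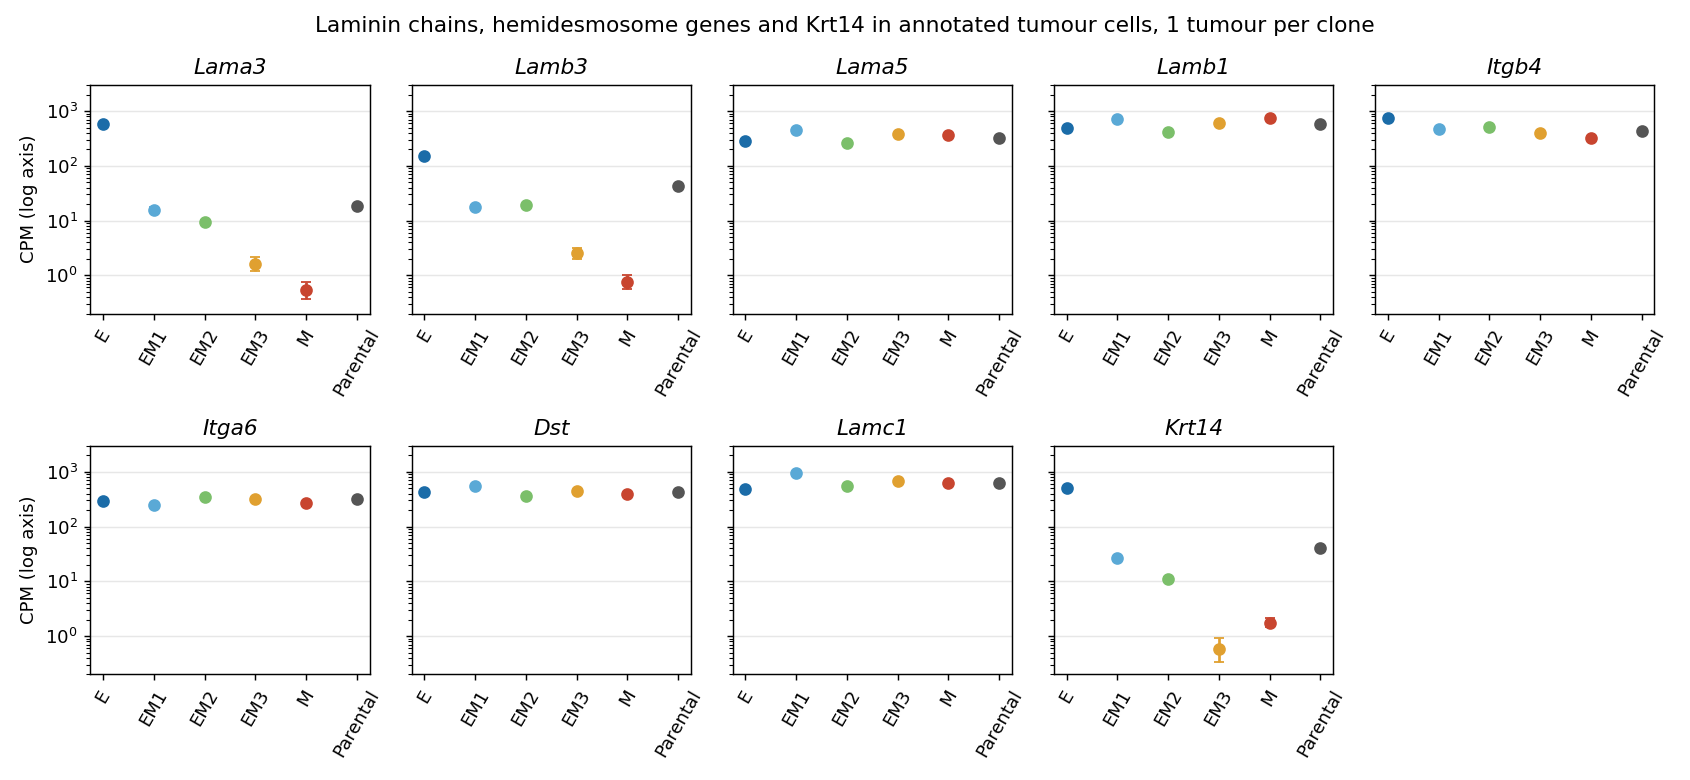
CPM (log axis) of the 7 members, of the laminin chain Lamc1 and of the basal keratin Krt14 in annotated tumour cells; each point is 1 tumour and bars are 95% Poisson intervals, mostly smaller than the point. Lama3, Lamb3 and Krt14 are far lower outside Clone E, from 572.0 to 0.536 CPM for Lama3 between Clone E and M. Lama5, Lamb1, Itga6 and Dst vary far less.

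The spread of each member over the 6 tumours was set beside that of the 5830 genes with at least 50 CPM in tumour cells of any tumour. The range of log2(CPM + 10), highest tumour minus lowest, was 5.79 for Lama3, wider than 99.9% of those genes, and 3.90 for Lamb3, wider than 99.5%. It was 1.17 for Itgb4, 0.82 for Lamb1, 0.77 for Lama5, 0.63 for Dst and 0.48 for Itga6, where the median gene had 0.70. Of the members 2 lay at the edge of the distribution. The other 5 lay within its body, that is, between the 5th percentile of 0.30 and the 95th of 2.05. The members were chosen by these same levels, and Lama3 and Lamb3 reached 50 CPM in Clone E alone. These ranks are therefore a description and carry no test.

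Promoter sequence is shown for 1 laminin gene that varied widely between the tumours, Lamb3, and for both that varied less, Lama5 and Lamb1. Of the 7 members, 4 matched the RefSeq promoter table of build GRCm38.p6 (Lamb3, Lama5, Lamb1 and Dst). No promoter is printed for Lama3, Itgb4 or Itga6. The letters run from 250 bases before the listed start, 5′ to 3′ on the strand of the gene, and stop where an annotated exon or the RefSeq gene body begins. For Lamb3 the more upstream of 2 listed starts was taken, which lies inside the longer RefSeq gene. Capitals mark matches to 2 short motifs, CAGGTG, the core of an E-box, and GGGCGG, the GC box, each on either strand.
Lamb3, chr1:193301744-193301992, plus strand: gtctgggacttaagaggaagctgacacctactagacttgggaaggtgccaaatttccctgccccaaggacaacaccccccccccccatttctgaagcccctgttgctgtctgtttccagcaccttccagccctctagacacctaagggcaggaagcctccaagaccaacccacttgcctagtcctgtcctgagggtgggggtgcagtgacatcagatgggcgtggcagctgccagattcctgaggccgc
Lama5, chr2:180225905-180226109, minus strand: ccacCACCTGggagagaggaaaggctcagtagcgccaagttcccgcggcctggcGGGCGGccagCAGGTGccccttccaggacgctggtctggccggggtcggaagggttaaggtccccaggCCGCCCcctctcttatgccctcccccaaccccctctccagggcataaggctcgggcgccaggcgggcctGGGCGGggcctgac
Lamb1, chr12:31265043-31265145, plus strand: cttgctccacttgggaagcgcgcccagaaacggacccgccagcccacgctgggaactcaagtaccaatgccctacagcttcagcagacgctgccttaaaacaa
In the full windows of 250 bases, of which the printed stretches are the part before any exon, Lama5 held 2 matches to CAGGTG and 4 to GGGCGG, Lamb1 held 2 to GGGCGG, and Lamb3 held neither. Another motif, TGANTCA, the AP-1 site, matched none of the 3 windows. Over 32851 promoter windows of the same length, 17.2% held CAGGTG, 32.7% held GGGCGG and 6.75% held TGANTCA. These matches describe letters and not bound sites.

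Each tumour was then compared with Clone E as the log2 ratio of (CPM + 10), called when the ratio was at least 2-fold, among genes with at least 50 CPM in either tumour. Lama3 and Lamb3 were past 2-fold lower in EM1, EM2, EM3, M and the parental tumour. The share of all tested genes called lower was 5.2% for EM1, 6.22% for EM2, 6.79% for EM3, 8.07% for M and 6.59% for the parental line. Itgb4 was called lower in M alone, at a log2 ratio of -1.17, with -0.54 to -0.84 in the other 4. No member was called higher, where 3.75%, 3.65%, 3.71%, 6.52% and 2.96% of tested genes were. Because the members were picked with these values in view, the counts are not read against those shares, and the 5 comparisons all use the same Clone E cells.

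The log2 ratio of Lama3 was the lowest of all tested genes in EM1, M and the parental tumour, at -4.50, -5.79 and -4.36, and it was -4.91 in EM2 and -5.65 in EM3. Lamb3 had -2.56 in EM1, -3.68 in EM3, -3.90 in M, -2.47 in EM2 and -1.63 in the parental tumour. Leukocyte marker RNA was higher in Clone E than in the others, as given above. When only tumour cells with no UMI of Ptprc, the CD45 gene, were kept, 685 of 775 cells of Clone E remained. The members called lower again numbered 3 in M and 2 in each of EM1, EM2, EM3 and the parental tumour. Cells without a Ptprc UMI can still hold other leukocyte RNA, and its part in these ratios was not tested.

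Scaling mattered for the small differences. With TMM-scaled library sizes, in which Clone E had a factor of 1.28 and the others 0.898 to 1.02, the median gene's log2 ratio against Clone E moved up by 0.34 to 0.50 from 0.02 to 0.11. The calls over all genes turned from mostly lower to mostly higher, for example from 280 lower and 202 higher to 125 and 876 in EM1, and from 352 and 158 to 161 and 481 in the parental tumour. The split became 156 and 942 in EM2, 170 and 706 in EM3, and 225 and 971 in M. Lama3, Lamb3 and Itgb4 stayed below Clone E in all 5 tumours under both scalings. For Itgb4 the TMM ratio was close to none in EM2, at -0.05, and in EM1, at -0.11, with -0.42 in EM3 and -0.43 in the parental tumour. Itga6 was below Clone E in 2 tumours and Dst in 3 by CPM and in 0 by TMM, and Lama5 and Lamb1 in 1 by CPM and in 0 by TMM. The direction against Clone E therefore depended on the scaling in those tumours and was the same under both scalings in the others. Under TMM Lama5 and Lamb1 passed 2-fold higher in EM1, at 1.12 and 1.08, and Itgb4 in M no longer passed 2-fold lower, at -0.80.

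**Figure D2:**
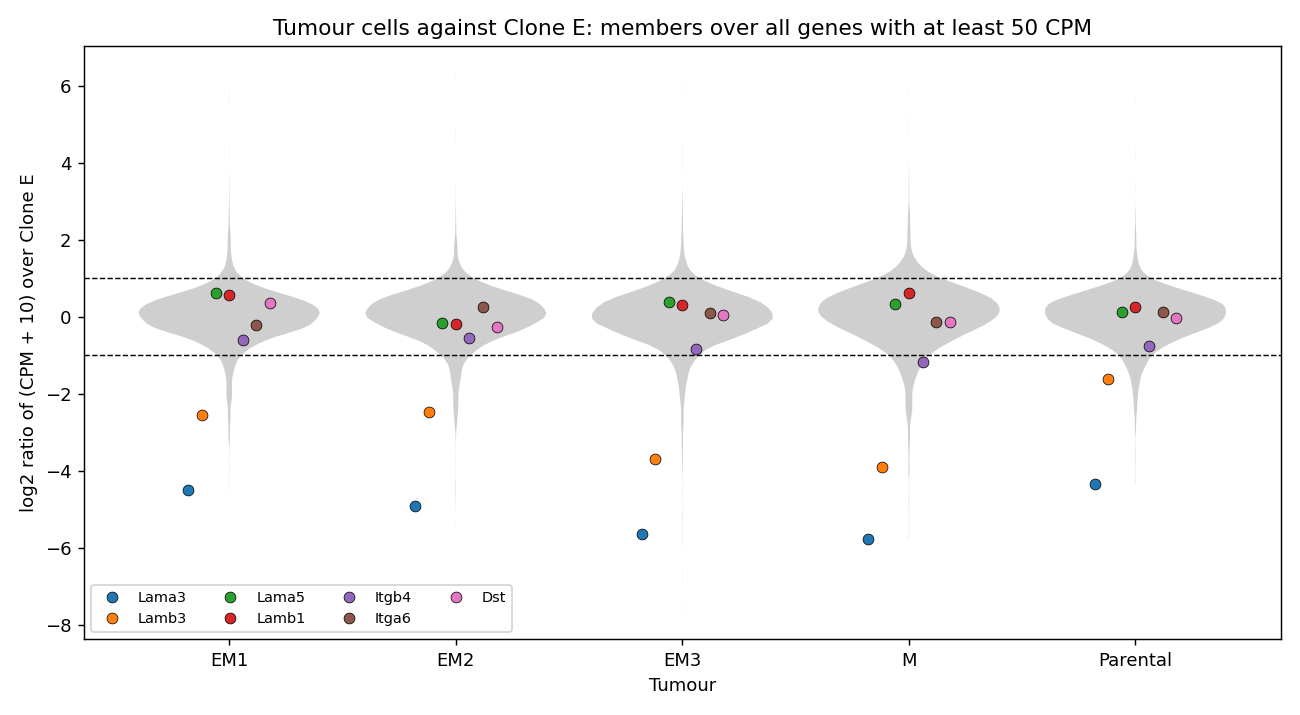
Log2 ratio of (CPM + 10) in tumour cells of each tumour over Clone E; grey shapes show all genes with at least 50 CPM in either tumour, coloured points the 7 members, and dashed lines 2-fold. Lama3 lies at -4.36 to -5.79 and Lamb3 at -1.63 to -3.90, whereas Lama5, Lamb1, Itga6 and Dst lie between the dashed lines in all 5 tumours by CPM; under TMM scaling Lama5 and Lamb1 pass 2-fold in EM1.

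Comparisons that leave Clone E out were EM3 over M and the parental tumour over M. Lama3 and Lamb3 were under 50 CPM in all 3 tumours and so were not among the genes compared. Of the other 5 members 0 passed 2-fold in either direction, where 2.2% of genes were lower and 2.37% higher for EM3 over M, and 2.35% and 2.04% for the parental tumour over M. Below that limit, Lama3 was still higher in the parental tumour than in M, at 18.4 against 0.536 CPM, and so was Lamb3, at 42.1 against 0.766 CPM.

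Lamc1, a chain shared by most laminins, had 495.0 CPM in Clone E and 541.2 to 941.8 in the others, and Lamb2 had 52.3 to 70.9 CPM. By CPM Lamc1 was past 2-fold in no tumour, but under TMM it passed 2-fold higher in EM1. Lama1, Lama2, Lama4 and Lamc3 were each at or below 1.58 CPM in every tumour.

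Partners of the hemidesmosome did not move as a group. Krt14, a basal keratin, had 497.3 CPM in Clone E, 40.5 in the parental tumour, 26.3 in EM1, 10.9 in EM2, 1.76 in M and 0.583 in EM3, and was past 2-fold lower in all 5. Plec, the plectin linker, had 1316 CPM in Clone E and was past 2-fold lower in M alone, at 504.8 CPM, a call that TMM removed. Cd151, the tetraspanin that associates with alpha6 integrins, had 178 CPM in Clone E and 306 to 438 in the others, past 2-fold higher in EM2 and EM3 by CPM and in all 5 by TMM. Col17a1, the collagen of the hemidesmosome, was at most 5.18 CPM and Trp63, the basal master regulator, at most 3.46 CPM, both in Clone E.

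Among 9 other laminin receptors, 6 or 7 were tested in each comparison with Clone E, and 0 to 3 were past 2-fold lower and 0 or 1 higher. Itgb1, the common beta1 integrin subunit, had 688.6 to 1392 CPM over the 6 tumours, the syndecan Sdc4 761.5 to 1666 CPM, and the syndecan Sdc1 275.1 to 1192 CPM. Itga2 lay past 2-fold lower in EM1, EM3 and M, Sdc1 in EM2, EM3 and M, and Itgb1 in M, whereas Itga1 lay higher in EM1 and Sdc4 in M. Under TMM the calls of Itgb1 and Itga2 in M were lost, and Sdc4 in EM1, Dag1 in EM2 and Itga7 in M passed 2-fold higher. Itga3, the alpha3 subunit of the other laminin-332 receptor, which was named after its values had been seen, had 1175 CPM in Clone E and 756 to 926 in the others. Of 18 other basement membrane genes 8 were tested, and Sparc was past 2-fold higher in all 5 tumours under both scalings, with 126 CPM in Clone E against 456 to 916. The perlecan gene Hspg2 had 444.8 to 709.5 CPM and Col18a1 299 to 631 CPM. Col4a1 lay past 2-fold lower in EM3 and Col18a1 higher in the parental tumour by CPM; under TMM the call of Col4a1 in EM3 was lost, Col18a1 passed in EM1, EM2 and EM3 too, and Col4a1, Col4a2 and Pxdn passed 2-fold higher in EM1. Of the enzymes that process laminins and anchoring fibrils, Mmp14, a membrane-bound metalloprotease, had 279.4 CPM in Clone E and 439.9 to 713.2 in the others, and Bmp1 had 389.0 to 748.7 CPM. Mmp14 was past 2-fold higher in EM1 and M by CPM and in all 5 tumours by TMM. Mmp2 was at most 16.2 CPM.

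By root mean square difference of centred log2(CPM + 10) over the 6 tumours, the 9 genes closest to Lama3 were Cdh1 (0.31), Krt14 (0.36), Esrp1 (0.60), Cldn7 (0.71), Krt17 (0.79), Cldn3 (0.81), Krt19 (0.82), Fxyd3 (0.84) and Aqp3 (0.85). Lamb3 itself was at 0.87, Itgb4 at 1.64 and the other members at 1.94 to 2.10. Cdh1, which encodes E-cadherin, had 742.3 CPM in Clone E, 51.9 in the parental tumour, 25.7 in EM1, 24.2 in EM2, 4.18 in M and 3.23 in EM3. Of 9 epithelial adhesion genes tested, 8 or 9 were past 2-fold below Clone E in each tumour by CPM, and 7 to 9 by TMM. The claudin gene Cldn4 had 12.8 to 4668 CPM, Epcam 4.74 to 1587 CPM, and plakoglobin Jup 44.8 to 817 CPM, each highest in Clone E and lowest in EM3. Of 6 epithelial regulators tested, 4 or 5 lay below Clone E by CPM, and 1 to 3 of 4 by TMM, where Klf5 passed 2-fold higher in M. Among them the splicing factor Esrp1 had 239 CPM in Clone E and 0.240 to 33.3 elsewhere, and Klf5 had 403 against 456 to 630. Of 3 EMT transcription factors tested, Twist1 had 183 CPM in Clone E and 294 to 513 elsewhere, past 2-fold higher in EM1, EM3 and M, Snai1 had 101 to 303 CPM, past 2-fold higher in M, and Zeb2 had 130 to 261 CPM. Under TMM Twist1 passed in EM2 as well, Snai1 in EM1, and Zeb2 in EM3 and M. The genes closest to Lamb1 were Ppm1a (0.07), Plcg1 (0.09), Tcf4 (0.09), Phf21a (0.09) and Man2b2 (0.10), with Lama5 at 0.13. These distances rest on 6 tumours and describe likeness of level only.

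Detection in single cells followed the levels. Each cell was thinned to 2000 UMIs so that depth did not differ, which left out 36 to 206 tumour cells per tumour. Lama3 was then seen in 41.8% of tumour cells of Clone E (95% Clopper-Pearson interval 38.1 to 45.5), 2.91% in the parental tumour, 2.11% in EM1, 2.02% in EM2, 0.519% in EM3 and 0.0647% (0.0133 to 0.189) in M. In macrophages of the same libraries, which should lack the gene, the share was 2.78% in Clone E, 0.679% in the parental tumour and 0.037% to 0.1% in the other 4, so that the value in M was not distinguishable from background at this depth. The median depths before thinning were 6509 to 15276 UMIs in tumour cells and 5069 to 9564 in macrophages. Without thinning the tumour cell share was 59.4% in Clone E, 11.5% in the parental tumour and 0.491% in M. Lamb3 was seen after thinning in 22.6% of tumour cells in Clone E, 6.51% in the parental tumour, 3.21% in EM2, 2.51% in EM1, 0.467% in EM3 and 0.216% in M, against 0.113% to 0.68% of macrophages. In EM3 and M the intervals of tumour cells and macrophages overlapped for Lamb3.

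In contrast, the other members were detected in a large share of tumour cells of each tumour. After thinning, Lamb1 was seen in 51.9% to 76.2%, Dst in 50.03% to 64.4%, Itgb4 in 43.2% to 67.7%, Lama5 in 39.8% to 58.8% and Itga6 in 36.8% to 49.8%. In macrophages the shares were at most 6.41% for Lamb1, 5.01% for Itgb4 and 3.61% for Lama5, but 8.36% to 16.1% for Dst and 7.06% to 17.0% for Itga6.

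Cells with a UMI of Lama3 more often held Lamb3 in the 4 tumours where at least 20 such cells were left after thinning; EM3 and M, with 9 and 11, were not compared. With cells thinned to 5000 UMIs, Lamb3 was seen in 43.2% (31.8 to 55.3) of the 74 EM1 cells with Lama3 and in 2.81% of those without. The shares were 35.6% and 11.7% in the parental tumour, 21.7% and 5.78% in EM2, and 48.5% and 20.3% in Clone E. In EM1 the other members parted less. Lamb1 was seen there in 91.9% of cells with Lama3 and 94.2% of those without, and Lama5 in 81.1% and 84.7%. Itgb4 was seen in 85.1% and 83.0%, Itga6 in 74.3% and 63.2%, and Dst in 90.5% and 90.8%. The variance of UMIs per cell over the mean, which is 1 for counting noise alone, was 8.63 for Lama3 in Clone E, 5.05 in EM1, 2.41 in the parental tumour, 1.88 in EM2, 1.85 in M and 1.66 in EM3. It was 1.23 to 1.85 for Lamb1 over the 6 tumours, and 3.03 for Itgb4 in Clone E. This ratio can grow with the mean, and the mean of Lama3 was 2.94 UMIs in Clone E, 0.0727 in EM1 and 0.00316 in M. Its order therefore does not rank tumours or genes by unevenness between cells. Cells of 1 tumour are not replicates, so these shares describe single libraries.

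The contrast that was not used to choose the members lay within tumours. Tumour cells of each tumour were divided into those with and those without a UMI of Cdh1, counts were summed, and the 2 sums were compared over the 6 tumours with edgeR's quasi-likelihood test, tumour as a block and Benjamini-Hochberg adjustment over 12245 genes. Of these genes 223 were higher in cells with Cdh1 (1.82%) and 79 were lower (0.645%). Of the 7 members 2 were higher, Lama3 and Lamb3, and 0 were lower. By DESeq2, 2 members were higher as well, but they were Lama3 and Itga6.

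Lama3 rose in cells with a Cdh1 UMI in 6 of 6 tumours. Its level was 604.1 CPM with and 180.1 without Cdh1 in Clone E, 92.2 and 4.91 in EM1, 41.0 and 8.41 in the parental tumour, 18.3 and 7.09 in EM2, 6.15 and 0.333 in M, and 3.49 and 1.54 in EM3. The log2 difference was 2.43 (SE 0.31, edgeR adjusted p = 0.00155). The values in M and EM3 rest on 14 and 4 UMIs in cells with Cdh1. In 5 leave-one-out runs in which EM1 was kept the log2 difference was 2.38 to 2.76, and without EM1 it was 1.94, all with the call kept.

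Lamb3 rose less, and in 5 of 6 tumours. Its level was 155.0 CPM with and 98.9 without Cdh1 in Clone E, 65.1 and 31.9 in the parental tumour, 61.2 and 11.1 in EM1, 24.8 and 17.7 in EM2, and 3.95 and 0.651 in M, but 1.74 and 2.54 in EM3, where 2 UMIs lay in cells with Cdh1. The log2 difference was 1.17 (SE 0.24, edgeR adjusted p = 0.0222). The call was lost without the parental tumour, at an adjusted p of 0.0847, and with DESeq2, at 0.126. Over all alternatives tried, the adjusted p of Lamb3 ran from 1.43e-08 to 0.9999, the highest without the tumour block.

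The other members did not pass the test. Itgb4 had a log2 difference of 0.24 (adjusted p = 0.162) and Itga6 of 0.17 (adjusted p = 0.119), both by edgeR. Itga6 passed with DESeq2 (adjusted p = 0.0123) and when cells were divided by a UMI of Epcam in place of Cdh1 (adjusted p = 0.0343). Lama5, Lamb1 and Dst had log2 differences of -0.05, -0.03 and -0.06. Lamb1, for example, had 493.0 CPM with and 375 without Cdh1 in Clone E but 667.8 and 735.2 in EM1.

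**Figure D3:**
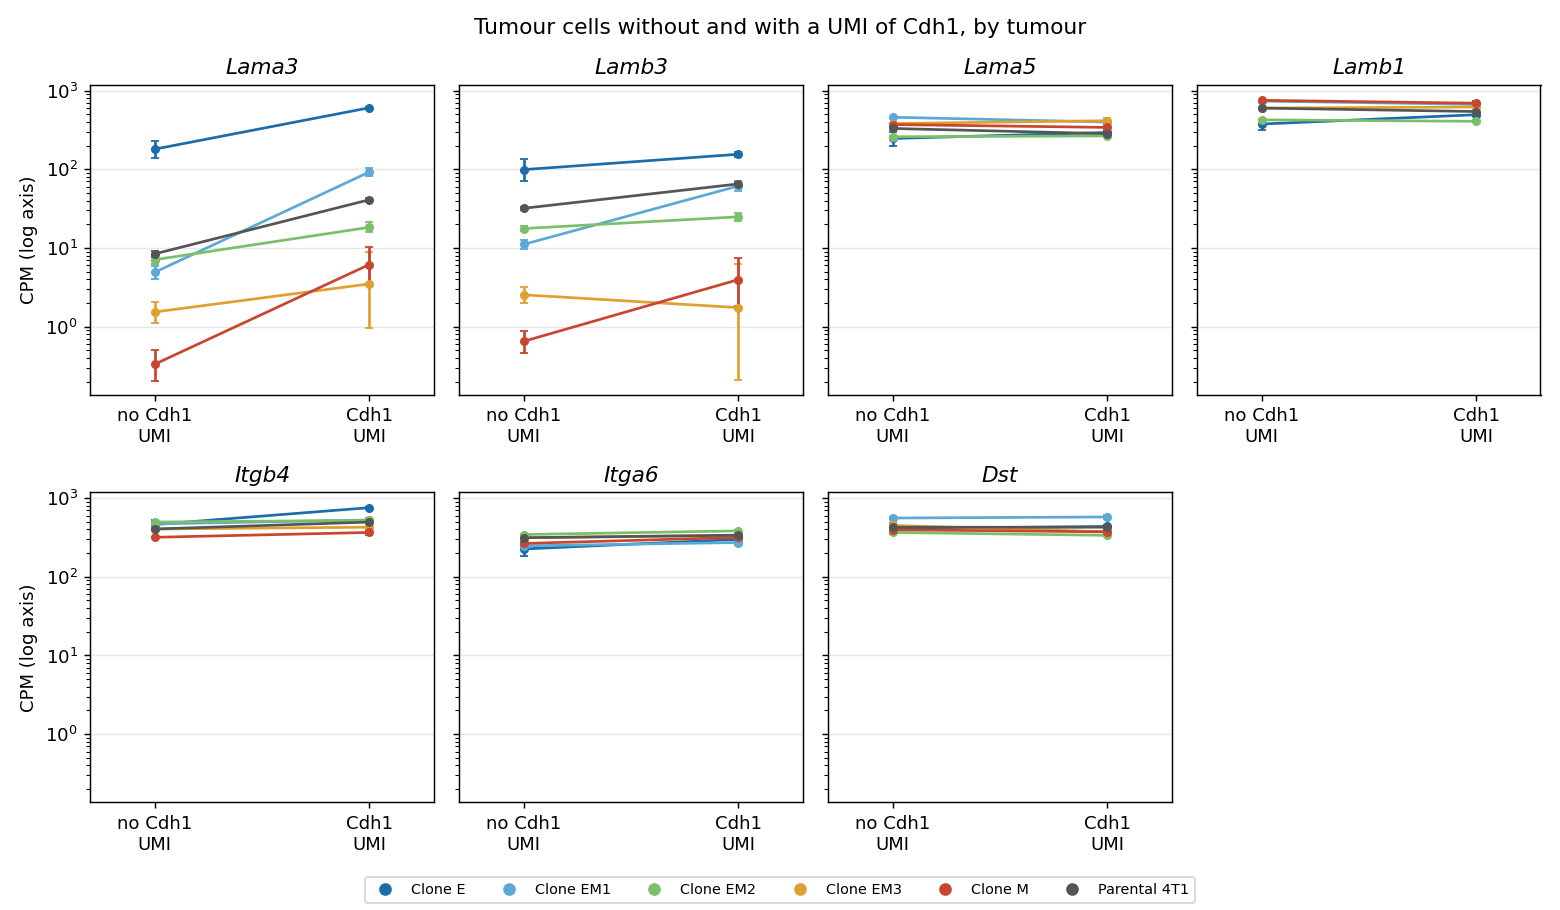
CPM (log axis) of the 7 members in tumour cells without and with a UMI of Cdh1; each line joins the 2 sets of 1 tumour and bars are 95% Poisson intervals. Lama3 is higher in cells with Cdh1 in 6 of 6 tumours and Lamb3 in 5 of 6, with EM3 the exception, while the lines of the other members are nearly level.

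Krt14 was the one of 5 hemidesmosome partners and basal keratins that was called, with a rise of 2.90 (edgeR adjusted p = 0.00723). The median log2 difference of these 5 was 0.58. An unadjusted p under 0.05 was found for 2 of them in edgeR and for 4 in DESeq2, which also made 1 call. Of 9 other laminin receptors 0 passed in edgeR, where 5 had an unadjusted p under 0.05, and 1 passed in DESeq2. Of 14 other basement membrane genes 0 passed in edgeR, 3 had an unadjusted p under 0.05, and 1 passed in DESeq2. Epithelial adhesion genes rose in 7 of 9 cases, among them Epcam by 1.84 and Cldn4 by 2.19, and epithelial regulators in 7 of 10, among them Esrp2 by 1.17 and Elf3 by 0.65. Of 4 EMT transcription factors tested 1 was called, Zeb2, a repressor of epithelial genes, which fell by 0.24 (edgeR adjusted p = 0.0334). Zeb1, another such repressor, had a log2 difference of 0.35 (edgeR adjusted p = 0.347). Of 4 laminin and anchoring fibril processing enzymes tested 1 was called, Mmp2, which fell by 0.80.

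Cells with and without Cdh1 differed in depth in Clone E, with medians of 6961 and 2484 UMIs, but little elsewhere, from 9964 and 9644 in EM1 to 14410 and 12731 in the parental tumour. With cells thinned to 2000 UMIs first, Lama3 had a log2 difference of 1.83 and Lamb3 of 1.45, both called by edgeR. Without Clone E they had 2.58 (adjusted p = 0.00492) and 1.23 (adjusted p = 0.0312). None of the 4 leukocyte, 5 macrophage and 5 granulocyte markers was called by edgeR or DESeq2, or had an unadjusted p under 0.05. Of 5 T and NK markers 0 were called by either tool, and 3 had an unadjusted p under 0.05 in each. In edgeR these were Nkg7 at 1.32, Trac at 0.83 and Cd3d at -0.86. Cdh1 is not particular to tumour cells here, since NK cells of the CD45 libraries had 91.1 to 235.8 CPM. Among tumour cells with no UMI of Ptprc, Lama3 had a log2 difference of 2.41 (edgeR adjusted p = 0.000988). Lamb3 had 1.18 there (edgeR adjusted p = 0.0219). Such cells can still hold other leukocyte RNA, and its part in this contrast was not tested. Of 4 endothelial markers tested 0 were called and 0 had an unadjusted p under 0.05 in either tool. Of 6 fibroblast markers 1 was called, Pdgfra, which fell by 0.52 (edgeR adjusted p = 0.00266), and the median log2 difference of the list was -0.16. Of 3 pericyte markers tested 1 was called, Notch3, which rose by 1.16 (edgeR adjusted p = 0.0341), while Pdgfrb had -0.71 (edgeR adjusted p = 0.0775) and Rgs5 -0.07, so that the list had no common direction. DESeq2 also made 1 call in each of these lists. The part of Pdgfra and Notch3 in the differences of Lama3 and Lamb3 was not tested.

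Across annotated classes of the Total libraries, 5 members were higher in tumour cells than in macrophages without overlap between tumours (Lama5, Lamb1, Itgb4, Itga6 and Dst), where 42.1% of genes tested were. Against fibroblasts 4 were, where 35.6% of genes were, and Lamb1 overlapped, with 210.5 to 445.9 CPM in fibroblasts and 421.0 to 749.1 in tumour cells. Lama3 and Lamb3 overlapped in both cases. Within the same tumour, tumour cells were above fibroblasts in 6 of 6 tumours for Lama3, Lamb3 and Lamb1. They were above macrophages in 6 of 6 for Lama3 and in 5 of 6 for Lamb3. In M the Lama3 intervals overlapped, at 0.373 to 0.745 CPM in tumour cells and 0.173 to 0.663 CPM in macrophages. Those of tumour cells and fibroblasts overlapped for Lama3 in EM1, EM3 and M. These classes are part of how the members were chosen, so the counts are a description.

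Endothelial cells, present with at least 50 cells in 4 tumours (Clone E, EM2, M and parental), also held several members. Itga6 had 384.0, 553.7, 414.6 and 514.4 CPM there, above tumour cells in 4 of 4 tumours and without overlap, where 15.6% of genes were higher in endothelial cells. Lamb1 had 506.3 to 763.7 CPM, also above tumour cells of the same tumour in 4 of 4, although the ranges overlapped. Dst had 353.5 to 418.0 CPM, close to tumour cells, while Itgb4 at 125.4 to 173.6 CPM and Lama5 at 98.7 to 146.9 CPM were lower than in tumour cells in each tumour. Cells that the authors annotated as Unknown, counted in the 3 tumours with 69 to 85 of them, held the same 5 members, with Lamb1 at 331.9 to 419.8 CPM, Dst at 243.8 to 274.2, Lama5 at 189.9 to 245.7, Itgb4 at 174.5 to 245.7 and Itga6 at 141.8 to 198.4. Many cells of this class had been left out as called doublets. Those kept were 70 of 251 in the parental tumour, 85 of 207 in M and 69 of 103 in EM3. How much of these levels came from doublets that were not called was not tested.

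Lama3 had 44.2, 24.9, 23.1 and 36.9 CPM in endothelial cells of Clone E, EM2, M and the parental tumour. Outside Clone E these levels were above those of the tumour cells in 3 of 3 tumours, with 12 to 40 UMIs each. Lamb3 in the same cells was 0 to 11.1 CPM, on 0 to 12 UMIs. Lama4, the alpha chain typical of vessels, had 357 to 581 CPM in endothelial cells and 106 to 258 CPM in fibroblasts against at most 1.58 in tumour cells.

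**Figure D4:**
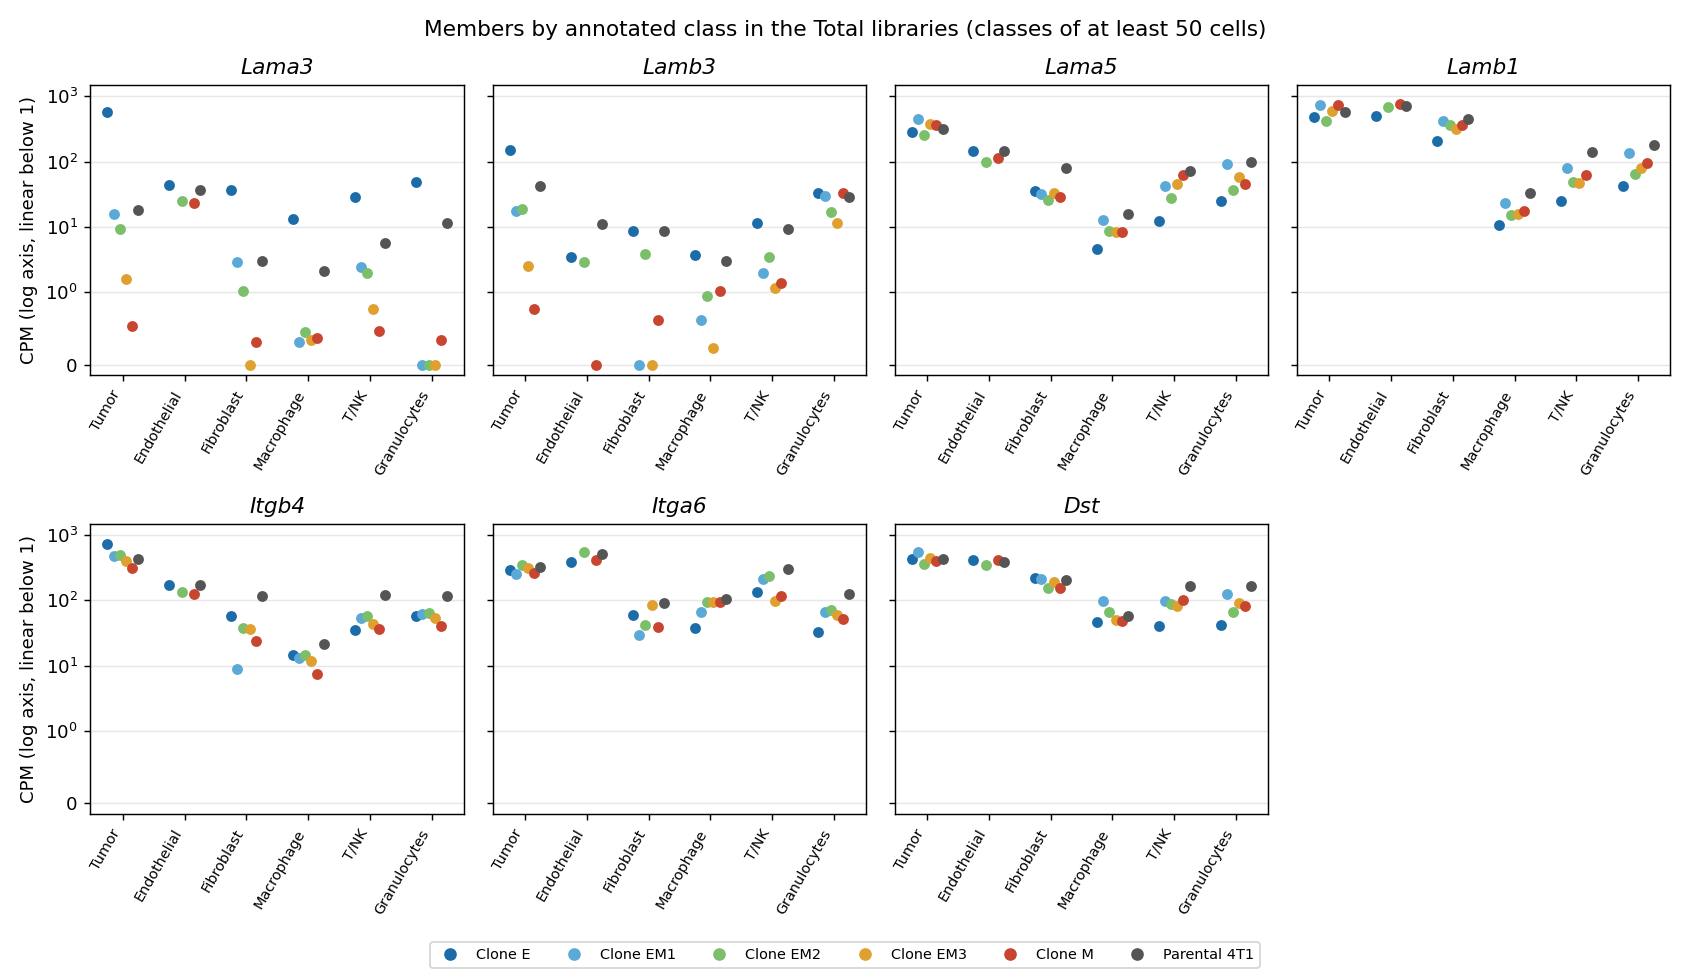
CPM (log axis above 1, linear below) of the 7 members in the main annotated classes of the Total libraries; each point is 1 tumour with at least 50 cells of the class. Endothelial Itga6 lies above tumour cells in the 4 tumours shown, and within each other class shown Lama3 is highest in the Clone E library, at 49.5 CPM in granulocytes, 44.2 CPM in endothelial cells and 13.1 CPM in macrophages.

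Leukocyte classes of the Total libraries held low levels of tumour cell genes. Lama3 in macrophages was 13.1 CPM in Clone E and 0.306 to 2.13 elsewhere, and in granulocytes 49.5 CPM in Clone E and 0 to 11.7 elsewhere. Itgb4 in granulocytes was 41.0 to 116.7 CPM in the Total libraries but 0.229 to 2.80 CPM in the CD45 libraries of the same tumours. How much of the low levels in Total libraries came from RNA of tumour cells was not tested.

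In the CD45 libraries 4 members stood out in a leukocyte class. Lamb3 was found in granulocytes, at 41.0 CPM in M, 37.8 in the parental tumour, 25.2 in EM1, 24.7 in Clone E, 24.0 in EM2 and 12.3 in EM3, on 24 to 179 UMIs. Macrophages had 0.145 to 0.856 CPM, so the classes did not overlap, as was so for 14.8% of genes tested in that direction. Granulocyte Lamb3 came without Lama3, which was at most 0.229 CPM in the same cells. In the Total libraries granulocytes had 11.6 to 33.6 CPM of Lamb3, in EM1, EM3 and M above the tumour cells of the same tumour.

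Itga6 was high in 1 T cell class. Cd44- Cd4+ T cells had 325, 413, 419, 262 and 514 CPM in Clone E, EM1, EM2, EM3 and the parental tumour, above the tumour cells of the same tumour in 4 of these 5. Cd44+ Cd4+ T cells, named for CD44, a marker of antigen experience, had 80.7 to 157.6 CPM in the same tumours, lower without overlap, as was so for 8.64% of genes. NK cells had 15.1 to 35.6 CPM, also without overlap (15.2% of genes). The value of EM3 rests on 62 Cd44- cells and 24 UMIs. Itgb4, its hemidesmosome partner, was at most 3.72 CPM in Cd44- cells.

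Lama5 and Dst went the other way between these 2 classes. Lama5 had 17.6, 10.5, 12.6, 39.9 and 30.6 CPM in Cd44+ Cd4+ T cells of the same 5 tumours, on 4 to 27 UMIs, and 34.6 CPM in M, against 0 to 1.23 in Cd44- cells. Dst had 28.1 to 58.9 CPM in Cd44+ and 9.37 to 13.03 in Cd44- cells. Neither gene overlapped between the classes, as was so for 7.35% of genes in that direction. The highest Dst of the T cell classes was in Foxp3+ Cd4+ T cells, the regulatory T cells, at 73.2 to 135.6 CPM in 6 tumours. These contrasts were picked after the levels had been seen and were not tested.

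**Figure D5:**
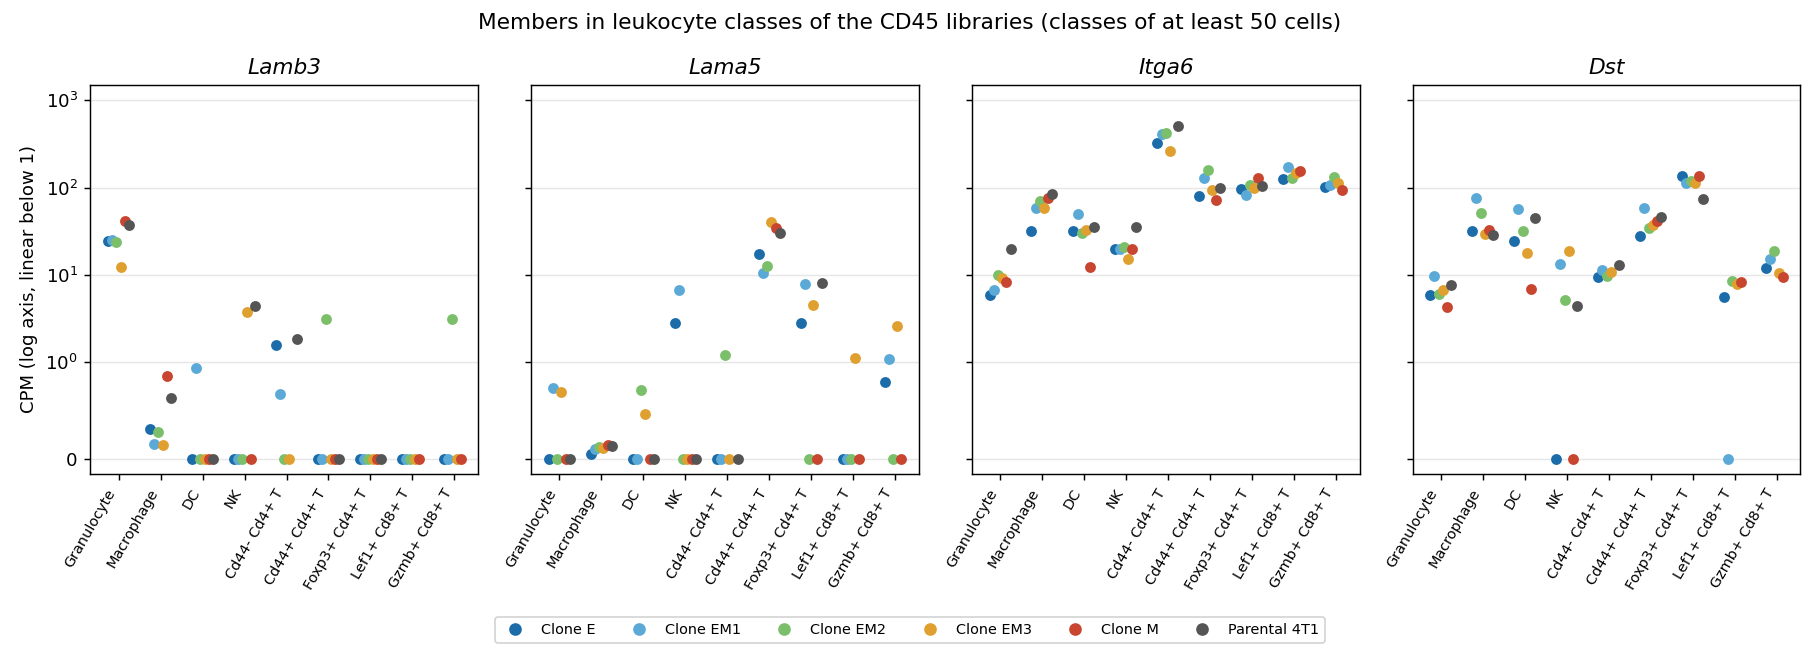
CPM (log axis above 1, linear below) of Lamb3, Lama5, Itga6 and Dst in leukocyte classes of the CD45 libraries; each point is 1 tumour with at least 50 cells of the class. Lamb3 is at 12.3 to 41.0 CPM in granulocytes and below 1 CPM in macrophages, and Itga6 is highest in Cd44- Cd4+ T cells.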

How the data were processed

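Libraries of 6 tumours, 2 per tumour, were analysed from the deposited tables, which hold UMI counts per gene and cell; a second table by the authors gives cell classes, summed counts and, per the file headers, the mitochondrial percent and the same value as a fraction, neither used as a filter here. Cell Ranger and the build mm10 are named in the submitters' processing notes, without version. The labels' protocols name both a fixed-RNA kit and 3′ reagents, and which applied is unclear, so that levels of different genes are not on a common scale and their order within a list was used only to choose which to name. Depth was 28083101 to 122055131 UMIs per library. The authors had filtered cells before deposit, with the fewest genes in any cell running from 200 to 650 between libraries.

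Doublets were called with Scrublet in scanpy 1.11.5, with 2 simulated pairs per cell, an expected share of 6% and a single score limit, the median over the 12 libraries. It marked 2523 of 115612 cells (2.18%), which were left out. Classes are the authors' annotation, used where a library held at least 50 cells. Counts were summed per class and library and scaled to CPM. Intervals are exact Poisson or Clopper-Pearson at 95% and cover counting error only. For contrasts between classes, genes needed a median of 10 CPM in either class, a limit set after the data had been seen. The test of cells with a Cdh1 UMI used edgeR 4.0.16 in R 4.3.3 with TMM and filterByExpr, and DESeq2 1.42.0 as an alternative. Tested on simulated data for this contrast, over 12183 genes, it recovered 100% of 200 genes changed 2-fold and called 0.0668% of unchanged genes. The changed genes were drawn from those with a mean of at least 50 CPM over the tumours, and a single dispersion was used for all genes. Recovery was not examined for genes with counts as low as those of Lama3 and Lamb3 in EM3 and M.

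The members and gene lists were chosen with earlier results of these data known. Named besides the members are, for each list, the 3 genes with the highest CPM in tumour cells of any tumour and any gene that a count of 5 or fewer turns on, and by likeness the 10 genes closest to Lama3 and the 5 closest to Lamb1. Some genes that this rule names are not reported here. Further genes were named after their values had been seen, as background.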

Additional observations from a re-analysis of the deposited data

How the results depend on the processing

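Leaving out each tumour in turn changed the contrast of tumour cells with and without a Cdh1 UMI as follows: the genes called higher numbered 122 to 221, those called lower 20 to 138, and the members called 1 to 2, the lower value without the parental tumour. The counts of 122 higher were those without EM1 and without the parental tumour. Among the lower genes, 20 were called without EM1, 25 without the parental tumour, 35 without M, 51 without EM3 and 138 without Clone E. Without the tumour block 2 genes were higher and 0 lower, and 0 members were called. With no filter on low counts 382 were higher and 320 lower, and with cells thinned to 2000 UMIs 148 and 23. Division by Epcam gave 209 lower genes. In each alternative but the one without the block, Lama3 stayed called, in 12 of 13, and Lamb3 in 10 of 13. Of 60 recounts of members past 2-fold against Clone E, under 6 other settings,, the one that moved by over 1.5 times was that for higher members in EM1 under TMM scaling, from 0 to 2. Ratios of genes under 10 CPM depend on the added constant: with 1 CPM in place of 10, Lama3 in M over Clone E was -8.54 on the log2 scale, and Lamb3 was -6.43. Shares of cells with a UMI rose with the number of UMIs kept per cell. Depth limits Lama3 and Lamb3 in EM3 and M, where 35 to 73 UMIs were counted in all tumour cells of a tumour. No paired analysis was possible between clones because each had 1 tumour.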
